A study of Mus musculus with 12 samples.

Results

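The IL-2 receptor genes Il2ra and Il2rb were followed through ATAC-seq peak lists of mouse splenic CD4+ T cells, in which the Tn5 transposase marks open chromatin. Il2ra encodes the alpha chain (CD25), which raises the affinity of the receptor for IL-2 and does not signal alone. Il2rb encodes the beta chain (CD122), which signals with the common gamma chain through JAK kinases to STAT5 and also serves the IL-15 receptor. Regulatory T cells (Treg) carry the alpha chain at rest, make little IL-2 themselves and depend on the cytokine to keep up Foxp3, while resting conventional T cells (Tconv) carry little of it and gain it on activation.

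The members were all peaks in 2 windows of the NCBIM37 mouse genome. The Il2ra window ran over 180 kb of chromosome 2 from 11480000 to 11660000, with the gene at about 11.56 to 11.61 Mb, and the Il2rb window over 80 kb of chromosome 15 from 78280000 to 78360000. The windows held 140 of the 275880 peaks in the series, which merged into 26 of its 40457 regions. Of these, 18 lay at Il2ra and 8 at Il2rb, and they are numbered here from the low end of each window. A peak in at least 2 libraries was found at 12 Il2ra and 5 Il2rb regions, which were kept for the counts, as were 32787 regions of the whole series.

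The 4 groups were Treg with the Lrrc32 enhancer knocked out (KO Treg), wild-type Treg (WT Treg), enhancer-KO Tconv (KO Tconv) and wild-type Tconv (WT Tconv), with 3 libraries of 100000 sorted cells each. All animals, of both genotypes, carried a Foxp3-IRES-EGFP reporter, and Treg were GFP+ and Tconv GFP- cells. The deleted element lies 70 kb from Lrrc32, the gene of the TGF-beta docking receptor GARP. The labels give neither strain background, age, pooling of animals nor whether each library came from a separate animal, so the p-values measure only the spread between these libraries, which may be technical. Lists held 21269 to 27605 peaks in 11 libraries and 5262 in KO Treg replicate 2. That library had a peak in 14.5% of the kept regions of the series, 0 of the 12 at Il2ra and 1 of the 5 at Il2rb. Read depth is unknown, and a region just under the calling limit reads as absent. In bulk libraries a site open in fewer cells and a site less open per cell cannot be told apart. Treg and Tconv labels were not checked at the Foxp3, Ikzf2 or Ctla4 loci, since no annotation of NCBIM37 was used.

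In the gene order of the GRCm38.p6 RefSeq table, Il2ra is flanked by Rbm17 on its low side and by Il15ra, the alpha chain of the IL-15 receptor, on its high side. Il2rb is flanked by Tmprss6 and C1qtnf6. Exons and start sites were not placed on NCBIM37, so regions are given by position, and the outer regions of a window may belong to these neighbours. Of the 18 Il2ra regions, 9 overlapped the approximate gene span, and 5 of those had a peak in at least 2 libraries (regions 8, 11, 12, 13 and 15). Region 8, from 11563771 to 11564741, was the first of them from the low end, where a gene on the plus strand starts. The 250 bases before the Il2ra start (RefSeq, GRCm38.p6, plus strand, chr2:11642542-11642791) are shown because they are the promoter of this gene; whether region 8 covers them was not determined. Capitals mark the match to the ETS motif GGAAGT, which reads on the minus strand and starts at base 216.
Il2ra promoter: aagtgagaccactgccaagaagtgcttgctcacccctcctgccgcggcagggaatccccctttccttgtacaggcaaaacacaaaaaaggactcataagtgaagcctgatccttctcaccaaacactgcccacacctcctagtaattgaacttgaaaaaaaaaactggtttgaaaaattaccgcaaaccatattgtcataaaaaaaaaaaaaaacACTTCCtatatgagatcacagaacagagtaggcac
The ETS letters were found, on either strand, in 19.7% of the 32851 promoters of that table. The letters TTCNNNGAA (STAT), TGANTCA (AP-1), GTAAACA (forkhead) and TGTGGT (RUNX) had no match in this stretch, against 7.02%, 6.75%, 3.17% and 14% of all promoters. Of the members, 1 had a promoter in the table.

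At Il2rb, which signals, Treg libraries had more and higher-ranked peaks than Tconv libraries. Peaks covered 2138, 249 and 2058 bp of the window in KO Treg and 2402, 2829 and 1679 bp in WT Treg, against 712, 1087 and 470 bp in KO Tconv and 857, 339 and 0 bp in WT Tconv. Every Treg library except KO Treg replicate 2 was above every Tconv library. How often other windows separate in this way was not computed. With all 12 lists cut to 5262 peaks, the Treg minus Tconv difference of 1315 bp fell to 41.5 bp. Averages were 1893 ± 891 bp in Treg and 577.5 ± 389 bp in Tconv (SD, n = 6 each), and 2221 ± 427 bp in Treg without KO Treg replicate 2 (SD, n = 5). Of the 5 kept Il2rb regions, 4 had a peak in more Treg than Tconv libraries and 1 in equal numbers. Over the kept regions of the series, 21.7% had more Treg and 56.0% more Tconv libraries, a balance that includes the short list of KO Treg replicate 2.

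**Figure D1:**
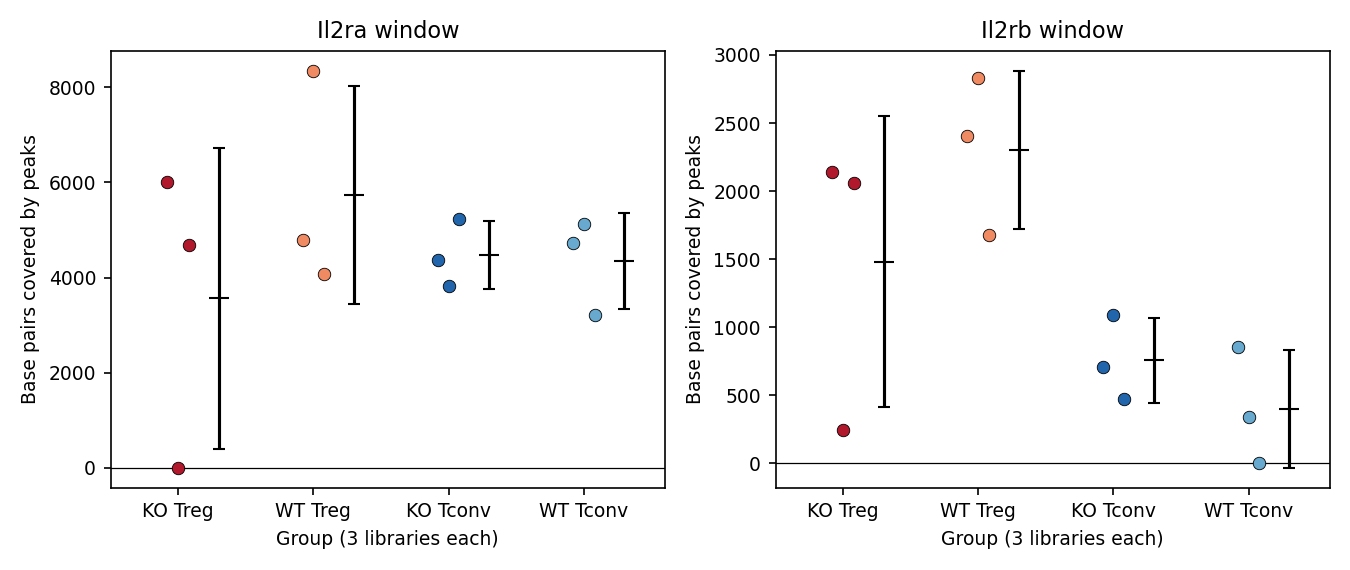
Base pairs of the Il2ra window (left) and Il2rb window (right) covered by peaks in each library, with 1 point per library and the mean ± SD of the 3 libraries of a group beside it. At Il2rb the Treg libraries, apart from KO Treg replicate 2 at 249 bp, lie at 1679 bp or more and the Tconv libraries at 1087 bp or less; at Il2ra the groups overlap.

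Region 6 of Il2rb, 554 bp from 78325259 to 78325812, showed the cell types furthest apart in rank. Values here are percentiles of the authors' −log10 p within a library's own list, where 100 is the strongest peak. They were 68.3 and 68.5 in KO Treg replicates 1 and 3 and 70.1, 68.7 and 69.8 in WT Treg, against 35.8, 17.7 and 32.3 in KO Tconv and 9.80 and 4.09 in WT Tconv replicates 1 and 2. KO Treg replicate 2 and WT Tconv replicate 3 had no peak. The 5 Treg values lay within 2 points of each other, above all Tconv values. The authors' fold enrichment over background at this region was 5.59 to 6.44 in Treg and 4.26 to 5.63 in Tconv, so by fold the cell types overlapped slightly.

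Region 5 lies 820 bp below it, from 78323869 to 78324438, and was the 1 region of both windows with a peak in KO Treg replicate 2. Its percentiles were 70.1, 22.3 and 64.8 in KO Treg and 66.8, 35.2 and 53.5 in WT Treg. In Tconv they were 7.18, 27.1 and 26.5 in KO and 8.35 in WT replicate 1, with no peak in WT replicates 2 and 3. The 22.3 of KO Treg replicate 2 comes from a list of 5262 peaks and is not comparable with the others.

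Region 3, from 78305774 to 78306850, had percentiles of 34.6 and 37.2 in KO Treg replicates 1 and 3 and 37.0, 57.0 and 40.4 in WT Treg. Among Tconv libraries, KO replicate 2 had 28.4 and WT replicates 1 and 2 had 17.8 and 16.2, and the other 3 had no peak. By presence alone none of the 3 met the rule for a cell type difference given further on, since regions 3 and 5 were found in 2 more Treg than Tconv libraries and region 6 in as many of either.

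Ranks in lists of unequal length are not comparable, so the lists other than that of KO Treg replicate 2 were reduced to their 21269 strongest peaks, a step chosen after the data were seen. In these 11 lists, the percentiles of region 6 were 59.4 to 67.5 in Treg, and 4.65 to 24.9 in the 3 Tconv libraries that still had a peak. Those of region 5 were 15.9 to 65.3 in Treg and 12.6 and 15.5 in the 2 Tconv libraries with a peak. Region 3 had 24.1 to 44.1 in Treg and 3.34 to 17.0 in 3 Tconv libraries. With a missing peak counted as 0, every Treg library ranked above every Tconv library at 3 of the 5 Il2rb regions (3, 5 and 6), against 5.99% of the 28193 regions of the series. At region 5 the margin was narrow.

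**Figure D2:**
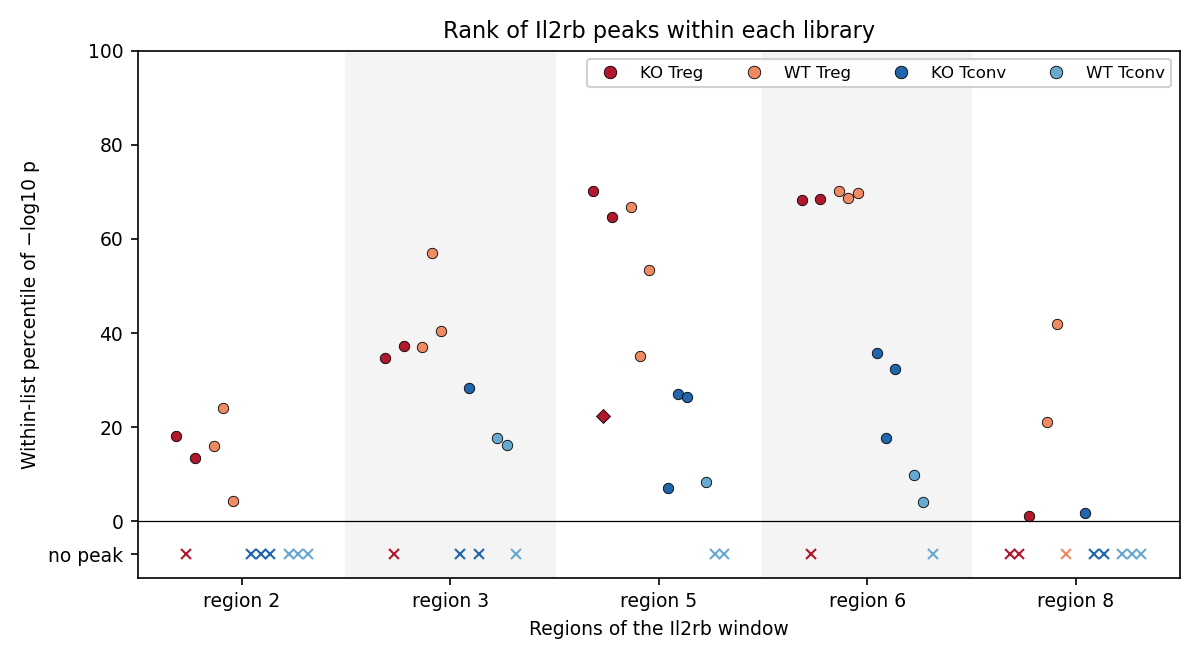
Within-list percentile of −log10 p (0 to 100, strongest at the top) for the 5 kept Il2rb regions, 1 point per library; crosses mark libraries with no peak, and the diamond is KO Treg replicate 2. At region 6 the 5 Treg points lie between 68.3 and 70.1, and the 5 Tconv points between 4.09 and 35.8.

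The outer Il2rb regions were weaker. Region 2, from 78280640 to 78281031, close to the low edge of the window, had a peak in all 5 Treg libraries other than KO Treg replicate 2 and in no Tconv library. Its percentiles were 18.1 and 13.5 in KO Treg replicates 1 and 3 and 16.0, 24.1 and 4.38 in WT Treg. A region was called Treg-enriched or Tconv-enriched when the libraries with a peak outnumbered those of the other cell type by 5 or 6. By this rule 1 of 5 Il2rb regions, region 2, was Treg-enriched and 0 were Tconv-enriched, against 3.2% and 3.55% of the 32787 kept regions. Fisher's exact test gave p = 0.0152 (two-sided, 5 of 6 against 0 of 6), with a Benjamini-Hochberg adjusted p of 0.224 over all kept regions, of which 6.75% had an unadjusted p under 0.05 and 0 passed that adjustment. Adjusted over the 5679 regions that could reach 0.05 at all, p was 0.0389, where 18.5% were Treg-enriched. With stricter peaks (−log10 q of at least 5) the difference was 1 library. Region 8, from 78358441 to 78359409, had percentiles of 1.20 in KO Treg replicate 3, 21.1 and 41.9 in WT Treg replicates 1 and 2 and 1.74 in KO Tconv replicate 1, and no peak elsewhere. Regions 1, 4 and 7 had a peak in 1 Treg library each, at percentiles of 10.8, 9.28 and 7.83.

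**Figure D3:**
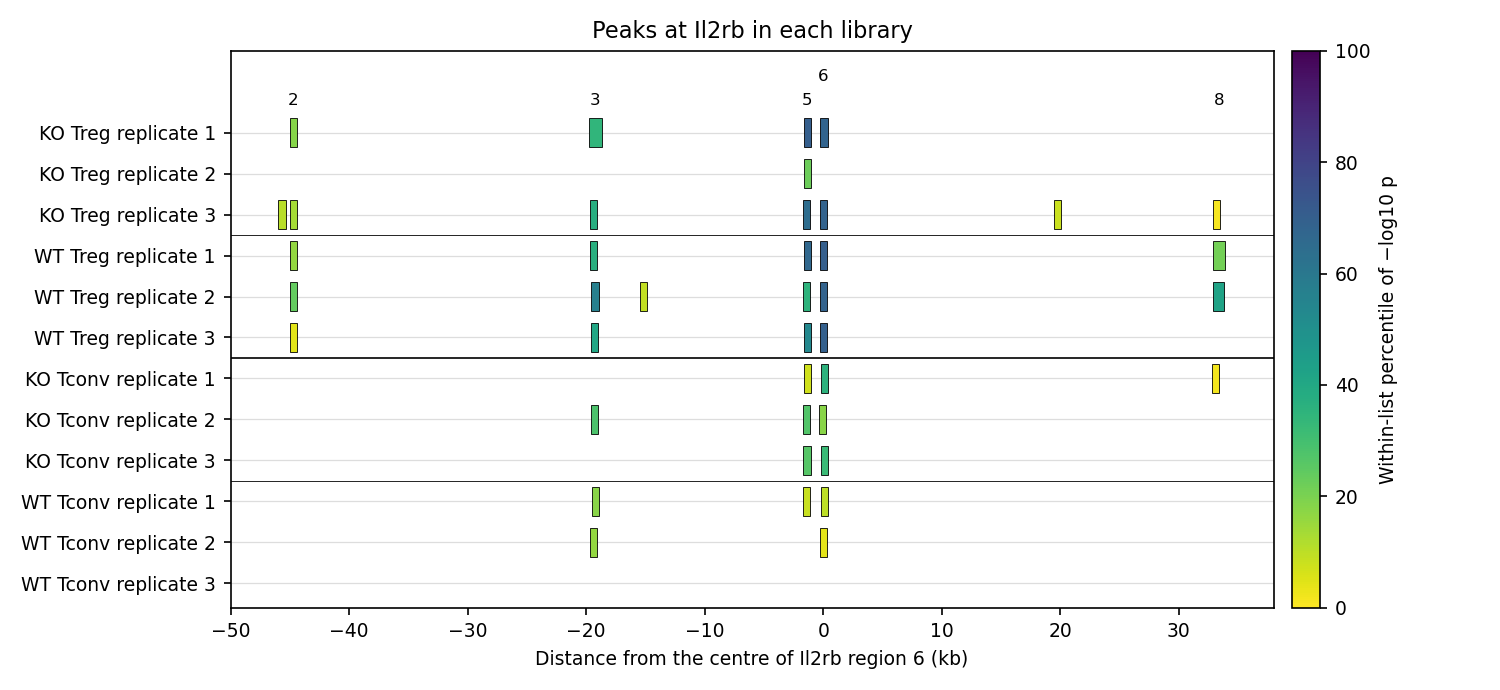
Peaks of the Il2rb window in the 12 libraries (rows), by distance in kb from the centre of region 6; colour gives the within-list percentile of −log10 p, numbers name the kept regions, and short peaks are drawn at a minimum width of 0.6 kb. Apart from the row of KO Treg replicate 2, regions 5 and 6 are darker in Treg than in Tconv rows. Region 2 has peaks in Treg rows alone.

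At Il2ra, the alpha chain gene, the sites with the strongest peaks had peaks in both cell types, 1 of the 12 kept regions was called Treg-enriched and 0 were called Tconv-enriched. Covered bases were 6009, 0 and 4689 bp in KO Treg and 4796, 8345 and 4067 bp in WT Treg, against 4358, 3815 and 5231 bp in KO Tconv and 4716, 5125 and 3212 bp in WT Tconv. The ranges overlapped, with means of 4651 ± 2738 bp in Treg and 4409.5 ± 784 bp in Tconv (SD, n = 6 each). Without KO Treg replicate 2 the Treg mean was 5581 ± 1698 bp (SD, n = 5), and the Treg minus Tconv difference changed sign without WT Treg replicate 2, to -497.3 bp, and without KO Treg replicate 1, to -30.1 bp. Of the 12 kept regions, 3 had a peak in more Treg, 8 in more Tconv and 1 in equally many libraries. Over the series, 21.7% had more Treg and 56.0% more Tconv libraries, again with the short list of KO Treg replicate 2 included. Regions 1, 8, 11 and 18 had a peak in every library but KO Treg replicate 2, and count as more Tconv through that library alone. They make 4 of 12 regions open in at least 11 libraries, against 45.1% of the kept regions of the series.

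Region 1, from 11524248 to 11525181, lies outside the approximate gene span and held the strongest peaks of the window. Percentiles were 80.3 and 75.8 in KO Treg replicates 1 and 3 and 89.1, 82.6 and 73.7 in WT Treg, against 89.6, 69.9 and 73.8 in KO Tconv and 95.1, 83.9 and 79.8 in WT Tconv. The groups overlapped. Region 18, at the other end from 11626921 to 11627955, had 58.7 and 51.9 in KO Treg replicates 1 and 3 and 62.0, 32.3 and 28.8 in WT Treg, against 53.2, 44.6 and 30.4 in KO Tconv and 34.2, 19.7 and 30.5 in WT Tconv, again with overlap.

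Within the gene span, region 8 had percentiles of 47.9 and 65.7 in KO Treg replicates 1 and 3 and 52.8, 52.5 and 30.1 in WT Treg. In Tconv it had 54.1, 19.9 and 70.4 in KO and 43.5, 60.3 and 23.2 in WT, a wide spread in both cell types. Region 11, from 11574573 to 11575554, had 54.7 and 28.9 in KO Treg replicates 1 and 3 and 59.0, 48.5 and 54.1 in WT Treg, against 69.4, 42.4 and 53.2 in KO Tconv and 42.4, 63.1 and 73.9 in WT Tconv. Region 15, from 11585383 to 11586201, had 26.2 and 41.0 in KO Treg replicates 1 and 3 and 29.1 and 39.3 in WT Treg replicates 1 and 2, against 49.3, 53.4 and 38.4 in KO Tconv and 42.3, 50.6 and 34.6 in WT Tconv. The cell types overlapped at each of these 3 regions.

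Between regions 11 and 15, a pair of neighbouring sites lay 1751 bp apart, of which the one was called Treg-enriched and the other was not called. Region 12, from 11576755 to 11577418, had a peak in 5 Treg libraries and in no Tconv library. Its percentiles were low, 2.32 and 13.2 in KO Treg replicates 1 and 3 and 6.91, 24.0 and 9.47 in WT Treg. It was the Il2ra region called Treg-enriched, beside the same backgrounds of 3.2% and 3.55%. Fisher's exact test gave the same values as for Il2rb region 2, p = 0.0152 (two-sided), 0.224 adjusted over all kept regions and 0.0389 over those that could reach 0.05. The call was lost with stricter peaks, where the difference was 1 library, and at 50% coverage of the region, where it was 4.

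Region 13, from 11579170 to 11579767, had a peak in all 6 Tconv libraries and in WT Treg replicates 2 and 3. Percentiles were 10.5 and 4.79 in those WT Treg libraries, against 37.1, 31.8 and 56.6 in KO Tconv and 31.2, 35.6 and 18.7 in WT Tconv. All Tconv values lay above all Treg values. Its difference of 4 libraries fell short of a call (Fisher's exact p = 0.0606, two-sided, adjusted p = 0.549), where 6.38% of kept regions had at least 4 more Tconv libraries. With stricter peaks it was called at 5 more Tconv libraries, where 3.3% of regions were called. In the lists of equal length the 6 Tconv libraries kept their peak there, at percentiles of 18.7 to 48.5, and no Treg library did. It was the 1 Il2ra region of 11 where every Tconv library ranked above every Treg library, against 4.54% of regions. At 0 of these 11 did every Treg library rank above every Tconv library, against 5.99% of regions, although by presence in the full lists region 12 was Treg-enriched.

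Region 5, from 11547483 to 11548096, lies on the low side of the gene span. It had a peak in 4 Treg libraries and no Tconv library, at 25.1 and 31.2 in KO Treg replicates 1 and 3 and 29.4 and 22.7 in WT Treg replicates 1 and 2. These values were higher than those of region 12, but a difference of 4 libraries was not called (Fisher's exact p = 0.0606, two-sided, adjusted p = 0.549), where 6.26% of kept regions had at least 4 more Treg libraries. Without KO Treg replicate 2, where a difference of 4 is enough, region 5 was called beside region 12, and 6.21% of regions were called.

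**Figure D4:**
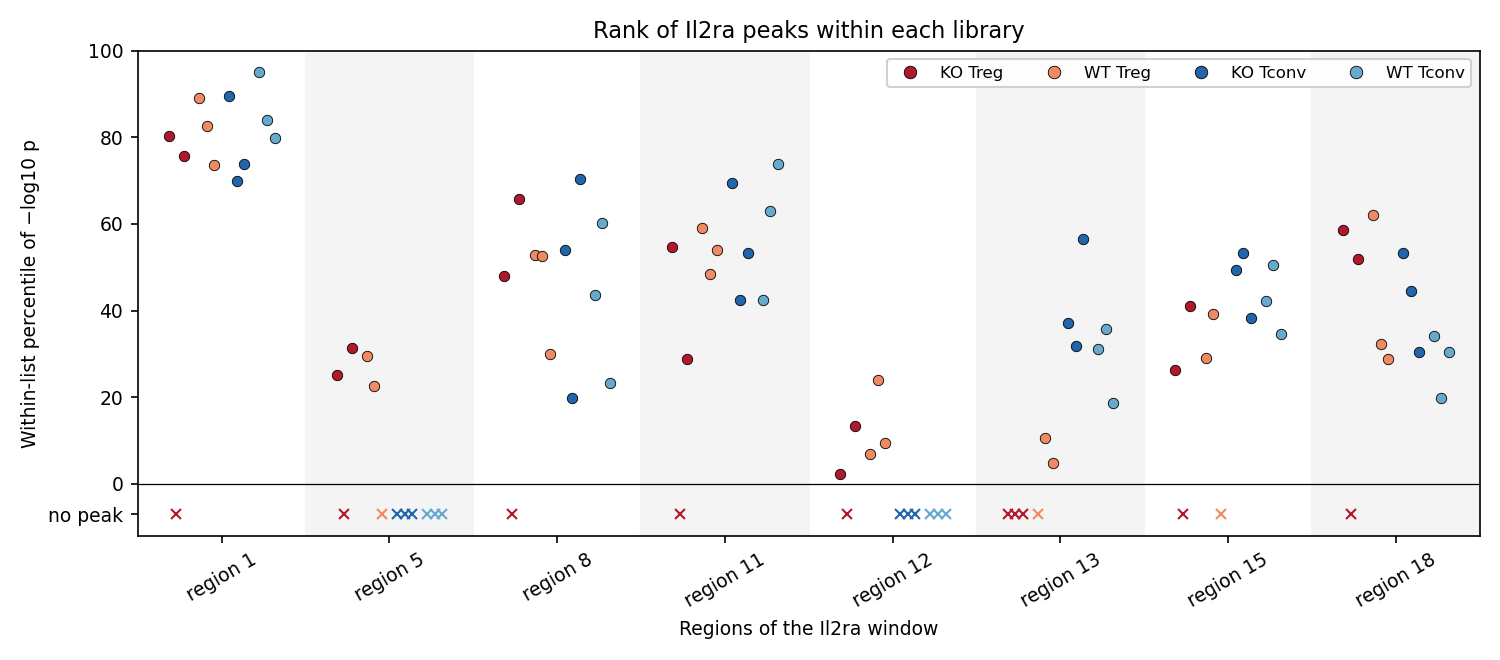
Within-list percentile of −log10 p (0 to 100, strongest at the top) for 8 Il2ra regions, 1 point per library; crosses mark libraries with no peak. Regions 1, 8, 11, 15 and 18 overlap between cell types, regions 5 and 12 have points for Treg alone, and region 13 has its Tconv points at 18.7 to 56.6 and its 2 Treg points at 10.5 and 4.79.

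Other Il2ra regions were weak. Regions 2 and 7 had a peak in 3 more Tconv than Treg libraries, region 6 in 1 more Treg library and region 3 in 1 library of each cell type, and their highest percentile in any library was 33.8. The 6 regions found in 1 library had percentiles of 0.725 to 11.5, and 5 of them were in Treg, of which 4 in WT Treg and 3 of these in WT Treg replicate 2, the library with the longest list.

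**Figure D5:**
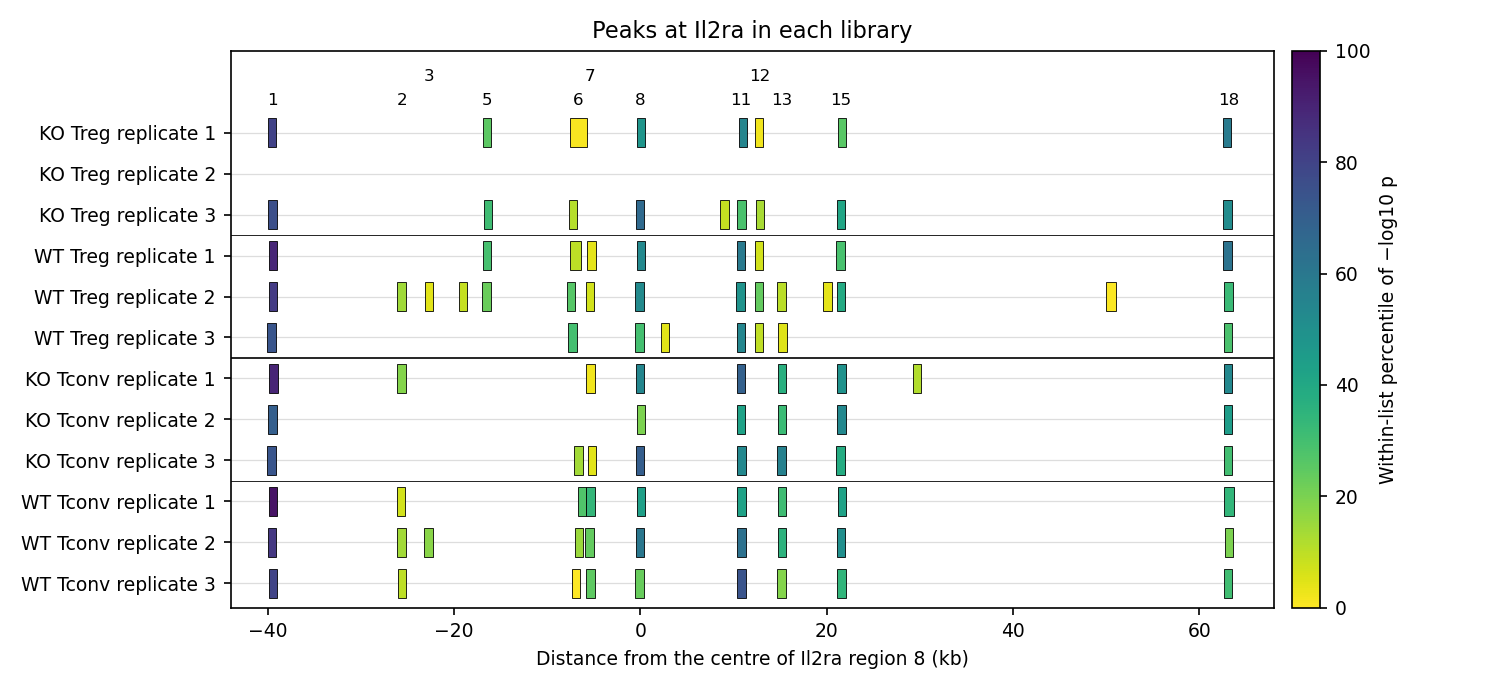
Peaks of the Il2ra window in the 12 libraries (rows), by distance in kb from the centre of region 8; colour gives the within-list percentile of −log10 p, numbers name the kept regions, and short peaks are drawn at a minimum width of 0.9 kb. Region 12 has peaks in Treg rows and the neighbouring region 13 mostly in Tconv rows.

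The comparison of KO with WT asked at which of these sites the peaks differed between genotypes. A region counted as lost or gained when the 3 libraries of one genotype, and no library of the other, held a peak there within a cell type. This was so at 0 of the 17 kept regions in Treg and at 0 in Tconv. Over the series, 0.973% of kept regions were lost and 0.0305% gained in KO Treg, and 0.189% and 0.793% in KO Tconv. A gain in KO Treg could not occur at any of the 17. KO Treg replicate 2 had a peak only at Il2rb region 5, where WT Treg libraries had one too. Its short list also makes a loss in KO Treg easier to meet. Without that library, 0 regions of the windows were lost and 0 gained in KO Treg, against 0.977% and 1.08% of the series. At 3 against 3 the smallest possible Fisher's exact p is 0.1, so no single region could pass 0.05, and over both cell types the smallest exact p at a kept member region was 0.182, unadjusted. Covered bases at Il2ra averaged 4017 ± 2107 bp in KO and 5043.5 ± 1754 bp in WT (SD, n = 6 each), and 4820 ± 840 bp in KO without KO Treg replicate 2 (SD, n = 5). At Il2rb they averaged 1119 ± 808 bp in KO and 1351 ± 1139 bp in WT (SD, n = 6 each). Both differences were smaller than the pooled SD within the 4 groups, 2045.5 bp at Il2ra and 663.7 bp at Il2rb. They pool cell types in which the directions differed. In Treg, Il2ra averaged 3566 ± 3158 bp in KO and 5736 ± 2289 bp in WT (SD, n = 3 each). Il2rb there averaged 1482 ± 1068 and 2303 ± 581 bp. KO and WT Tconv averaged 4468 ± 714 and 4351 ± 1007 bp at Il2ra. At Il2rb they averaged 756 ± 311 and 399 ± 432 bp. Without KO Treg replicate 2, KO Treg averaged 5349 ± 933 bp at Il2ra and 2098 ± 57 bp at Il2rb (SD, n = 2). In Treg, Il2ra regions 7 and 13 had a peak in 2 WT libraries and in no KO library, and 4.21% of the series had 2 or 3 WT and 0 KO libraries. Percentiles at Il2rb region 6 were 68.3 and 68.5 in KO Treg and 68.7 to 70.1 in WT Treg, within 2 points.

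In Tconv, with a missing peak counted as 0 and in lists of unequal length, every KO library ranked above every WT library at 1 of the 17 kept regions, against 7.59% of the 32787 in the series, and every WT library above every KO library at 1 of 17, against 2.57%. A single region in each direction is too few to set the windows apart from the series, and this count was added after the values were seen. Il2ra region 7, from 11558517 to 11559168, had percentiles of 2.30 and 4.41 in KO Tconv replicates 1 and 3 and no peak in replicate 2, against 33.8, 24.1 and 25.0 in WT Tconv. With stricter peaks it counted as lost in KO Tconv, as did 0.292% of regions. Il2rb region 6 went the other way, with 35.8, 17.7 and 32.3 in KO Tconv, against 9.80 and 4.09 in WT Tconv replicates 1 and 2. In the lists of equal length it counted as gained in KO Tconv, as did 0.5% of regions. KO Tconv lists held 24649 to 25283 peaks and WT Tconv lists 21269 to 24546, and the part of list length in these values was not tested beyond the reduction to equal numbers.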

How the data were processed

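Broad peaks had been called in each library on its own, and the 12 lists were used as deposited. The sample numbers within the peak names mostly do not match those the deposited lists are labelled with; libraries were identified by the deposit's own record of each list, and which numbering came first is not stated. Per the submitters' processing notes the tools were MACS2, Bowtie2, Trim Galore (0.4.4), DESeq2 and DiffBind, named without roles, on the build NCBIM37; cut-site shifts and read filters are not stated. The authors' peak caller gave each deposited peak a score, a fold ratio over background and its −log10 p and −log10 q. These describe or rank peaks within their own list, and presence was compared between libraries. No count test was run, since the lists hold no counts.

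Overlapping or touching peaks of the 12 libraries were joined into regions, and 1 bp of a peak made a region present. Regions in at least 2 libraries were kept. Cell types were compared by a difference of at least 5 libraries and Fisher's exact test, genotypes by 3 libraries against 0. Positions are 1-based. A percentile is the share of a list's peaks at or below a −log10 p; with several peaks in a region the highest was used. The members, lists and rules were chosen with earlier results of these data known. Given in full were regions with a difference of at least 4 libraries, those separating genotypes, and the 5 of each window with the highest mean percentile. Other genes of the IL-2 pathway were not placed, for lack of an NCBIM37 annotation; gene names and promoters came from GRCm38.p6 tables. Python 3.11.15, numpy 2.4.6, pandas 2.3.3, scipy 1.17.1 and matplotlib 3.10.9 were used.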

Additional observations from a re-analysis of the deposited data

How the results depend on the processing

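Counts of called regions were small, so many moved. Stricter peaks gave 0 Treg-enriched regions at each gene, against 2.87% of the series. There were 1 Tconv-enriched at Il2ra (region 13) and 1 lost in KO Tconv (Il2ra region 7), against 3.3% and 0.292%. Equal numbers of 5262 peaks gave 0 Treg-enriched at each gene. At 21269 peaks without KO Treg replicate 2 there were also 0, against 5.31%. There were 1 Tconv-enriched at Il2ra, 2 lost in KO Tconv (Il2ra regions 6 and 7) and 1 gained (Il2rb region 6). Shares were 7.49%, 0.419% and 0.5%. At 50% coverage Il2ra had 0 Treg-enriched, and 1 region was lost in KO Tconv (Il2ra region 2), against 2.27% and 0.258%. A difference of at least 4 gave 2 Treg-enriched and 1 Tconv-enriched at Il2ra, against 6.26% and 6.38% of the series. A difference of 6 gave 0 Treg-enriched at each gene. Fisher's exact test adjusted over all kept regions also called 0 at each, with 1 each at an unadjusted p under 0.05. KO libraries alone gave 0 Treg-enriched at each gene, where KO Treg replicate 2 must have a peak. They gave 1 Tconv-enriched at Il2ra, eased by that library's lack of peaks there. Where no series share is given, none was computed. At least 2 of 3 libraries against none gave 2 lost in KO Treg (Il2ra regions 7 and 13), against 4.21% of the series. Beyond an alternative's construction, the cause was not tested.

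With each library left out in turn, a difference of 4 was enough. Il2ra then held 1 to 2 Treg-enriched regions (2 without KO Treg replicate 2, WT Treg replicate 3 or any 1 Tconv library). It held 0 to 3 Tconv-enriched ones (3 without WT Treg replicate 2, 2 without WT Treg replicate 1, 1 without any other Treg library). Series shares, computed only without KO Treg replicate 2, rose from 3.2% and 3.55% to 6.21% and 6.4%. Losses in KO Treg went from 0 to 1 without WT Treg replicate 1 or 3. Losses in KO Tconv did so without KO Tconv replicate 1 or 3 and gains there without WT Tconv replicate 1. The Treg minus Tconv difference in covered bases at Il2ra, 241.5 bp, ran from -497.3 to 1172 bp (negative without WT Treg replicate 2 or KO Treg replicate 1), and was -734.5 bp with stricter peaks, -28.7 bp at 5262 peaks and -470.4 bp at 21269 peaks without KO Treg replicate 2. At Il2rb it was 1315 bp, ran from 1128 to 1644 bp and was 41.5 bp at 5262 peaks. The KO minus WT difference at Il2ra, -1026.5 bp, ran from -1425 to -223.1 bp (-223.1 bp without KO Treg replicate 2 and -366.2 bp without WT Treg replicate 2) and was -108.1 bp at 21269 peaks. At Il2rb it was -232 bp, ran from -502.2 to 63.6 bp (positive without WT Treg replicate 2) and was 41.5 bp at 5262 peaks. Over 12 results and 230 alternatives, 43 moved, 7 changed sign and 180 did neither. Peak presence in groups of 3 was too coarse to settle whether replicate numbers pair the libraries. Deviations of a genotype's Treg and Tconv libraries correlated at -0.0283 to 0.0608 with matching numbers and -0.0425 to 0.03 otherwise. Pairing by number, like any pairing, left 1 Treg-enriched region at each gene, without a Tconv peak, and covered-base differences of 241.5 and 1315 bp. A missing peak does not show closed chromatin, since lists end at −log10 p near 5 and depth is unknown.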
